A study of Mus musculus with 10 samples.

Results

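Chemokines are small secreted proteins that draw cells carrying the matching receptor, and in the thymus they bring in progenitors, hold immature thymocytes in the cortex and move selected thymocytes into the medulla. The set described here holds 10 genes that make up 4 of these ligand and receptor axes: Ccl25 with its receptor Ccr9, Cxcl12 with Cxcr4, Ccl19 and Ccl21a with Ccr7, and Ccl17 and Ccl22 with Ccr4. They were chosen by name with earlier results of these data known, and Ccl22 and Ccr7 were chosen for their falls in homozygous KO. Values of these 2 genes in comparisons with homozygous KO are therefore given as a description with no test. Of the 10 genes, 9 had a row among the 35375 features, 8 of them under an Ensembl identifier and Ccl25 under a row named by symbol, chromosome and strand. Of the 9, 8 had counts high enough to be tested, among 19511 features.

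The libraries came from total RNA of the whole thymus of C57BL/6J mice, collected 3 days after birth and depleted of ribosomal RNA. Usp7, a gene for an enzyme that removes ubiquitin from proteins, had been knocked out in hematopoietic cells on both alleles (homozygous KO, n = 3) or on 1 allele (heterozygous KO, n = 3), and 4 libraries were wild type. The series design lists 2 wild types with cre and 2 without, and the sample labels do not tie either state to a library. The promoter that drives the deletion is not given in the sources used here, and epithelial and other stromal cells of these thymi lie outside the hematopoietic system. Total counts were 39.8 to 122 M per library, lowest in wild type 1 and 2. Each library has its own animal number, so p-values rest on the spread between animals. The titles' animal numbers fall into an earlier range, 44 to 51, and a later one, 56 to 63, each with all 3 groups.

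Usp7 was measured first, as a check of the labels. It stood at 303, 422 and 408 CPM (counts for every 1 M counts of the library, the totals being scaled between libraries) in homozygous KO 1, 2 and 3. Heterozygous KO had 472, 516 and 516 CPM, and wild type 676, 670, 594 and 589 CPM. The 3 groups did not overlap, and the order followed the labelled allele number. Groups were separate for 32.7% of all features in homozygous KO against wild type and for 8.69% in heterozygous KO against wild type. Usp7 in heterozygous KO differed from wild type by -0.34 on the log2 scale (edgeR quasi-likelihood test, adjusted p = 0.608). The homozygous mean was 59.7% of the wild-type mean (two-sided exact permutation p = 0.0286 over 35 splits, the smallest p this design allows). These counts cover the whole gene and do not show the deleted part on its own.

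Thymocyte markers fitted the labelled tissue. Rag1, a component of the recombinase that assembles antigen receptors, had 3328 to 6622 CPM over the 10 libraries, and Cd8a 1135 to 1577 CPM. Xist, an RNA of the inactive X chromosome, had 1913 to 2459 CPM in homozygous KO 3 and wild type 2, 3 and 4. The other libraries, among them every heterozygous KO, had 0.368 to 1.12 CPM. The Xist term used later separates these sets, which are uneven over the groups. Since these are bulk samples, fewer cells of a type and less RNA per cell cannot be told apart in any of the values that follow.

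CCL25 comes mainly from cortical epithelial cells and binds CCR9 on immature thymocytes. CXCL12, made by stromal cells of the cortex, binds CXCR4 on double-negative and double-positive thymocytes. The former carry neither of the coreceptors CD4 and CD8, and the latter carry both. CCL19 and CCL21 are made in the medulla and bind CCR7 on thymocytes that have passed positive selection. CCL17 and CCL22 bind CCR4, which appears soon after selection, and dendritic cells are a main source of both ligands.

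The 250 bases before the RefSeq start site are shown for the genes of the CCR4 axis, which were lower in homozygous KO, and for Cxcr4, which was higher. The coordinates are those of GRCm38.p6. Capitals mark matches, on either strand, to CANNTG, the E-box bound by E proteins, and to a loose form of the NF-kB site, 3 G, any 5 bases and 2 C.
Ccl22, chr8:94745434-94745683, plus strand: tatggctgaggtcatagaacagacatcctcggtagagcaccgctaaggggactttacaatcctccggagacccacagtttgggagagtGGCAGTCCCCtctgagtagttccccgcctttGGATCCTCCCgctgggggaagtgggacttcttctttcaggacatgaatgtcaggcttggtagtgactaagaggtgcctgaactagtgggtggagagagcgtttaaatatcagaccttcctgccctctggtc
Ccl17, chr8:94810203-94810452, plus strand: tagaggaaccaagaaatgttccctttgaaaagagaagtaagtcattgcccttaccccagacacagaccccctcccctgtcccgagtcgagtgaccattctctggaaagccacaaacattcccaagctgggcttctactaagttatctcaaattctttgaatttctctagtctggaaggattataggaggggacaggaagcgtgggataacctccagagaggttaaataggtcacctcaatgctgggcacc
Ccr4, chr9:114496545-114496794, minus strand: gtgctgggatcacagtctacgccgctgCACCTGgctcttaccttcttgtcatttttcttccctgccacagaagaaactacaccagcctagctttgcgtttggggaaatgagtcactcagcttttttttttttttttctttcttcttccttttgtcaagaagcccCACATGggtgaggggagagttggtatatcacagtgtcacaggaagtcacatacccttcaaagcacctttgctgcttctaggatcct
Cxcr4, chr1:128592300-128592549, minus strand: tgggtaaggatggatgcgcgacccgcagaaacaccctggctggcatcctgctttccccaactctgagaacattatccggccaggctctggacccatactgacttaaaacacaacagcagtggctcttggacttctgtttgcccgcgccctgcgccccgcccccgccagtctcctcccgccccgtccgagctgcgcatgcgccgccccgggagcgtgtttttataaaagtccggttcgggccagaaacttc
Both matches in the Ccl22 window were to the NF-kB pattern, read on the opposite strand, and both in the Ccr4 window were to CANNTG, with no overlap between motifs in these windows. The Ccl17 and Cxcr4 windows held neither motif. Of 32851 RefSeq promoter windows of this length, 66.2% held CANNTG and 45.8% held the NF-kB pattern. Of the 9 listed genes with a promoter in the table, 5 held the first motif and 4 the second. Promoters for Ccr7 were not used here.

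In wild type the 2 receptors of immature thymocytes were the most abundant of the set. Per kilobase of the longest coding transcript, Ccr9 had 121 ± 8.26 CPM (SD, n = 4) and Cxcr4 113 ± 12.5 CPM, levels that lay within each other's spread. Ccl25 followed at 21.6 ± 4.21 CPM per kb and Ccr7 at 20.4 ± 5.51 CPM per kb, which did not differ beyond their spread either. Ccl22, at 9.79 ± 2.38 CPM per kb, and Ccr4, at 8.79 ± 2.498 CPM per kb, formed the next pair. Cxcl12 had 2.10 ± 0.645 and Ccl17 1.26 ± 0.507 CPM per kb. The choice of length matters for 2 of these genes: over all merged exons Ccr9 had 61.2 and Ccl25 3.06 CPM per kb in wild type. In homozygous KO the order differed. Ccr4 at 2.87 ± 0.746 and Ccr7 at 2.605 ± 3.42 CPM per kb (SD, n = 3) stood beside Cxcl12, which had 2.71 ± 1.11, and Ccl22 at 0.502 ± 0.198 CPM per kb stood beside Ccl17 at 0.374 ± 0.147.

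**Figure D1:**
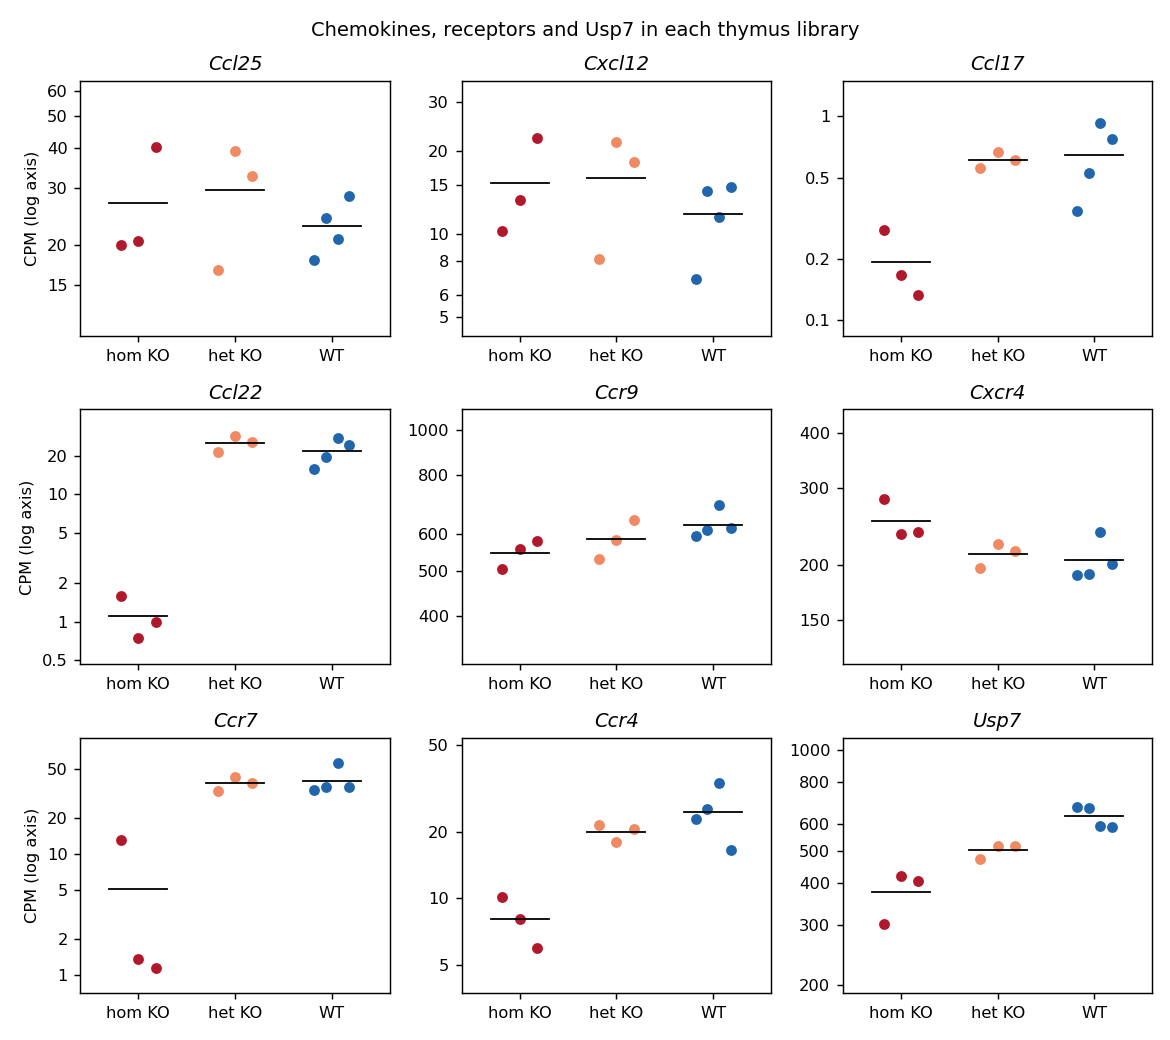
CPM on a log axis for the 8 tested chemokine and receptor genes and Usp7, with 1 point per library and a line at the group mean (homozygous KO n = 3, heterozygous KO n = 3, wild type n = 4). Ccl17, Ccl22, Ccr7 and Ccr4 lie lower in every homozygous KO library than in any other library, while Ccl25 and Cxcl12 overlap between all groups.

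The CCR4 axis was lower in homozygous KO at the receptor and at both ligands. Ccr4 had 10.1, 8.06 and 5.94 CPM in homozygous KO 1, 2 and 3. In wild type it had 23.0, 25.4, 33.6 and 16.7 CPM, and in heterozygous KO 21.5, 18.1 and 20.8 CPM. All 3 homozygous KO libraries lay under every other library. Ccr4 fell by 1.62 on the log2 scale against wild type (SE 0.229, edgeR quasi-likelihood test, adjusted p = 0.000487), a level 3.06-fold lower. Against heterozygous KO it fell by 1.32 (SE 0.237, adjusted p = 0.00295). The ratio to wild type was -1.43 on the log2 scale within the earlier animal numbers and -1.25 within the later ones. The earlier ratio rests on 1 homozygous KO library and the later ratio on 1 wild type.

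Ccl17 was a low-count gene, with 12 to 83 counts per library. Its CPM values were 0.278, 0.166 and 0.133 in homozygous KO, against 0.344, 0.530, 0.934 and 0.774 in wild type and 0.560, 0.670 and 0.610 in heterozygous KO. The highest homozygous library lay just under the lowest wild type, wild type 1, which had 14 counts. The fall was 1.76 on the log2 scale against wild type (SE 0.391, adjusted p = 0.00728) and 1.65 against heterozygous KO (SE 0.404, adjusted p = 0.0165). Against wild type 1 and 2 alone, the shallow libraries whose titles hold 2 wt words, Ccl17 was not called (log2 fold change -1.17, adjusted p = 0.0863). Leaving out homozygous KO 2, homozygous KO 3 or heterozygous KO 2 ended the call against heterozygous KO, with adjusted p = 0.0578, 0.0623 and 0.0527.

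Ccl22, chosen for its fall, had 1.597, 0.743 and 0.998 CPM in homozygous KO. Wild type had 15.6, 19.5, 27.7 and 24.0 CPM, and heterozygous KO 21.5, 28.7 and 25.6 CPM. The homozygous values were 3.43% to 7.36% of the wild-type mean. The fitted difference was -4.28 on the log2 scale against wild type (SE 0.284) and -4.49 against heterozygous KO (SE 0.292).

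The ratio between the 2 ligands of CCR4 was also lower in homozygous KO. Per kilobase of coding transcript, Ccl22 stood at 6.87 to 10.5 times Ccl17 in wild type and at 8.91 to 9.93 times in heterozygous KO. In homozygous KO 1, 2 and 3 the ratio was 1.33, 1.04 and 1.74. This within-library ratio does not depend on scaling between libraries, and it rests on 12 to 32 Ccl17 counts in homozygous KO. Because Ccl22 was chosen for its fall, a lower ratio follows in part from that choice and is a description with no test.

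Genes of dendritic cells were lower in the same libraries. Of 12 conventional dendritic cell genes, 10 were called lower in homozygous KO against wild type and 0 higher, with a median log2 fold change of -1.98. Over all tested features 25.8% were called in this comparison, 13.2% lower and 12.5% higher, with a median of -0.01, and these shares are the background for each gene list in this comparison. Their summed level was 26.8 to 32.1 CPM in homozygous KO and 97.4 to 119 CPM in wild type. The 3 largest falls were Cd209a, a lectin, Flt3, the receptor for a dendritic cell growth factor (log2 fold change -3.64), and Clec10a, another lectin (-3.32). Cd209a had a highest count of 1 in homozygous KO, at least 5.76-fold lower against a floor of 3 counts per library. Its wild-type level was itself low, at 0.170 ± 0.0980 CPM (SD, n = 4). Of 12 genes of activated or migratory dendritic cells, 6 were called lower and 1 higher, with a median of -0.56. Among them were the cytokine subunit Il12b, at 3 counts or fewer in every homozygous library and at least 33.0-fold lower, Ccl5, and the actin-bundling Fscn1 (-2.67). Their part in the values of Ccl17 and Ccl22 was not tested.

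Regulatory T cells are also known to carry CCR4. Of 8 genes listed for them, 3 were called lower and 1 higher in homozygous KO against wild type, where 25.8% of all features were called, 13.2% lower and 12.5% higher. Foxp3, their defining transcription factor, had 2.15, 1.16 and 1.51 CPM in homozygous KO and 3.51 to 5.95 CPM in wild type (log2 fold change -1.66, SE 0.248, adjusted p = 0.000678). Tnfrsf4 and Tnfrsf18, costimulatory receptors, were lower by 1.31 and 1.27 on the log2 scale, and Ctla4, an inhibitory receptor, was higher by 1.46. Whether these cells carry part of the Ccr4 value was not tested.

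CCR7 was the receptor with the widest spread within homozygous KO. Chosen for its fall, Ccr7 had 13.0 CPM in homozygous KO 1 and 1.35 and 1.14 CPM in homozygous KO 2 and 3. Wild type had 33.7, 35.5, 56.7 and 35.6 CPM, and heterozygous KO 33.3, 43.1 and 38.3 CPM. Homozygous KO 1 was thus 9.61 and 11.4 times as high as the other 2 libraries of its group, yet under every library of the other groups. The fitted difference from wild type was -2.96 on the log2 scale (SE 0.712), and -5.02 (SE 0.269) without homozygous KO 1. Against heterozygous KO it was -2.88, and -4.94 without that library. Homozygous KO 1 is also the library of its group with the earlier animal number and with the lowest Usp7.

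Genes of mature single-positive thymocytes, the cells in which CCR7 is high, were mostly lower in homozygous KO too. Of 11 such genes, 9 were called lower in homozygous KO against wild type and 0 higher, with a median log2 fold change of -1.80. Their summed level was 337, 331 and 287 CPM in homozygous KO 1, 2 and 3 and 475 to 593 CPM in wild type. S1pr1, the receptor that lets mature thymocytes leave the organ, had 10.5, 4.13 and 3.76 CPM in homozygous KO 1, 2 and 3, against 20.2 to 33.6 CPM in the other groups. Tesc, a calcium-binding protein, had 2.81, 0.655 and 0.643 CPM, against 5.67 to 7.73 CPM. Slfn1, the largest fall of the list, was lower by 2.62 on the log2 scale. Ms4a4b, named after its values were seen, had 20.8, 5.35 and 4.85 CPM, against 34.3 to 49.4 CPM. In each of these 3 genes with values by library, homozygous KO 1 was 2.54 to 4.37 times as high as the other homozygous libraries, a smaller gap than that of Ccr7. For Klf2, also on the list, homozygous KO 1 was 1.54 and 1.91 times as high as homozygous KO 2 and 3. For Itgb7, likewise listed, it was 2.20 and 2.62 times as high. The genes given by library are a part of the list, whose summed level, above, differed less between the homozygous libraries. The median listed gene stood at 46.3%, 30.0% and 17.9% of its wild-type mean in homozygous KO 1, 2 and 3. The part of mature thymocytes in the Ccr7 value was not tested.

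**Figure D2:**
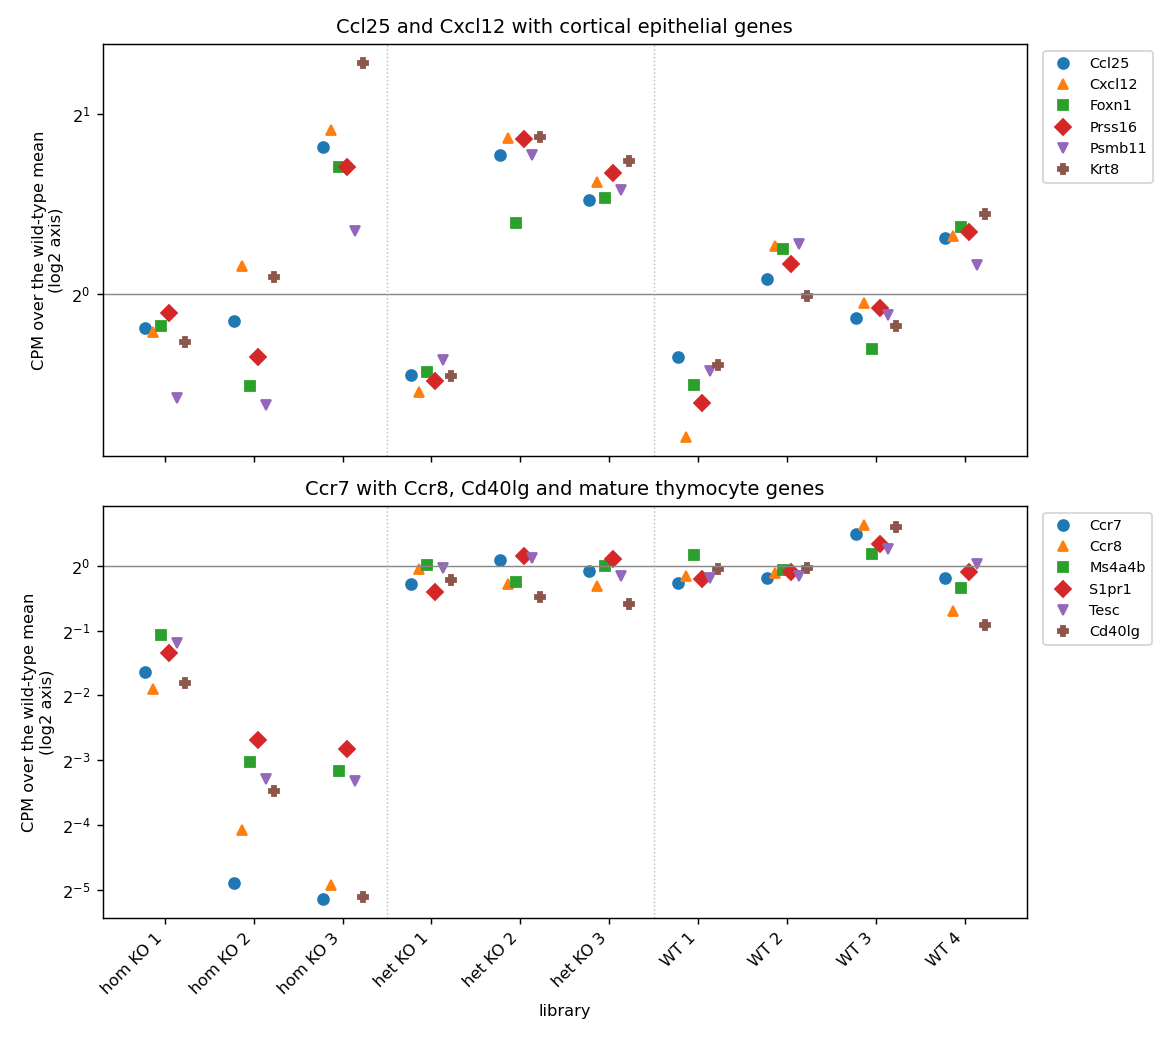
CPM of each gene divided by its wild-type mean, on a log2 axis, for the 10 libraries in order of group. Ccl25 and Cxcl12 rise and fall from library to library with cortical epithelial genes in all 3 groups. Ccr7, Ccr8, Cd40lg and the mature thymocyte genes shown (Ms4a4b, S1pr1 and Tesc) are higher in homozygous KO 1 than in homozygous KO 2 and 3.

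The ligands of CCR7 could not be followed. Ccl19 had 0 to 2 counts in each library, at or under the 3 counts that a count of 0 allows, which correspond to 0.0245 to 0.0753 CPM. It was under the filter and not tested, and no fold is given. Near-identical copies of Ccl19 are annotated, and how reads with several matches were counted is not stated. Ccl19 also overlaps 4930578G10Rik on the opposite strand in the annotation. A low count therefore does not show a low level. Ccl21a is not analysed here. The medullary epithelium, which makes both ligands, had 3 of 10 listed genes called higher and 3 lower in homozygous KO against wild type. Aire, the medullary regulator of self-antigen expression, fell by 2.37 on the log2 scale and Cldn4, a tight junction protein of some medullary cells, by 2.41. The keratins Krt5, Krt14 and Krt17 rose by 2.77, 2.39 and 0.95.

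CXCR4 was the single member called higher in homozygous KO. Cxcr4 had 283, 236 and 237 CPM in homozygous KO, 190, 191, 238 and 201 CPM in wild type and 197, 223 and 216 CPM in heterozygous KO. Homozygous KO 2 and 3 lay beside wild type 3, so that the groups overlapped. The rise was 0.30 on the log2 scale against wild type (SE 0.0918, adjusted p = 0.0344), 1.23-fold. The call did not hold under 10 of 19 alternatives, though the direction was the same in all 19. Library totals as the sole scaling gave 0.20 (adjusted p = 0.124), and wild type 3 and 4 alone gave 0.20 (adjusted p = 0.279). Leaving out 1 library ended it for homozygous KO 1 (adjusted p = 0.138), heterozygous KO 3 (0.0522), wild type 1 (0.0926), wild type 2 (0.0923) and wild type 4 (0.0644). Against heterozygous KO the difference was 0.25 (SE 0.0985, adjusted p = 0.117). Within the earlier and later animal numbers the ratios to wild type were 0.46 and 0.24 on the log2 scale, resting on 1 homozygous KO library and on 1 wild type.

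CCR9 differed little. Ccr9 had 506, 558 and 579 CPM in homozygous KO, 530, 583 and 641 CPM in heterozygous KO and 593, 611, 690 and 616 CPM in wild type. All 3 homozygous libraries lay under the 4 wild types, by a small margin at the border. The log2 fold change of -0.20 (SE 0.0791) missed the threshold (adjusted p = 0.0917). Library totals as the sole scaling gave -0.29 and adjusted p = 0.0248, and a term for the animal number range gave -0.25 and adjusted p = 0.0345. Ccr9 overlaps Lztfl1 and Slc6a20a on the opposite strand in the annotation, and no source says whether counting used the strand. It also overlaps Gm17200, a noncoding RNA, and Gm17020, a pseudogene, on the same strand.

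The ratio of Cxcr4 to Ccr9 within a library needs no scaling. It was 0.559, 0.422 and 0.410 in homozygous KO 1, 2 and 3, and 0.312 to 0.345 in wild type. Heterozygous KO had 0.372, 0.384 and 0.336, between and partly within these ranges. This ratio was computed after the values of both genes were seen and is a description. Genes listed for double-positive thymocytes, in which both receptors are found, were called lower for 3 of 12 and higher for 3 of 12. Rag1 fell by 0.85 on the log2 scale and the transcription factor Ets2 by 1.53, whereas Cd8a rose by 0.26 and the survival gene Bcl2l1 by 0.35.

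**Figure D3:**
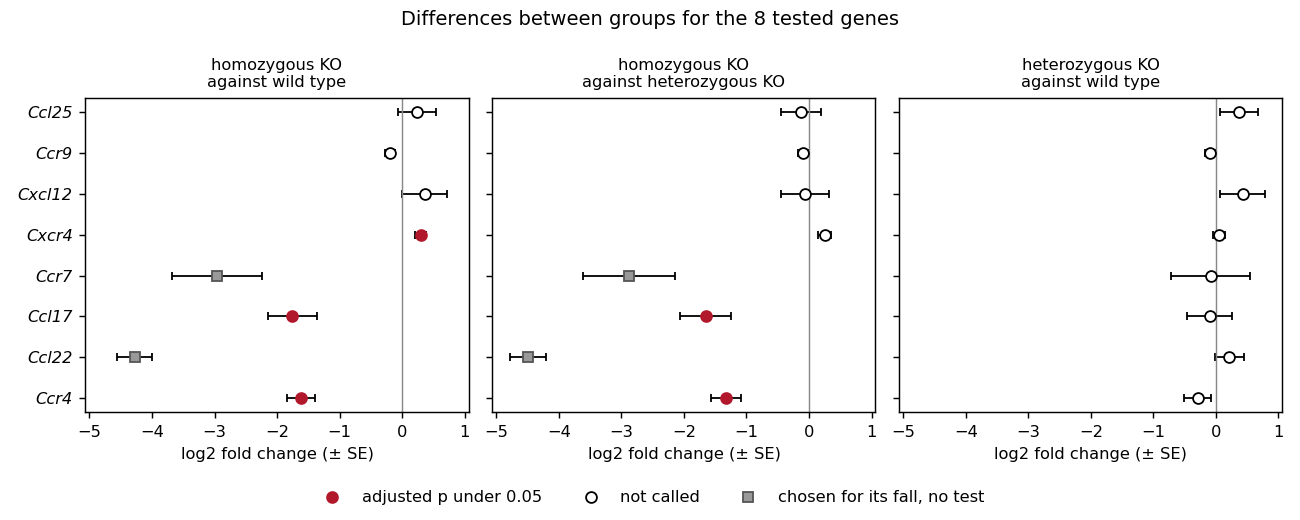
Log2 fold change with its standard error for the 8 tested genes in the 3 comparisons, filled red where the adjusted p is under 0.05 and grey squares for the genes chosen for their falls. Ccr4 and Ccl17 are called lower in both comparisons of homozygous KO, Cxcr4 is called higher against wild type, and no gene is called in heterozygous KO against wild type.

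The stromal ligands varied more between libraries than between groups. Ccl25 had 20.01, 20.6 and 40.2 CPM in homozygous KO, 16.7, 39.0 and 32.8 CPM in heterozygous KO and 17.9, 24.2, 20.9 and 28.3 CPM in wild type. Its highest values, in homozygous KO 3 and heterozygous KO 2 and 3, all had later animal numbers. Homozygous KO 2 and wild type 4, whose numbers are also later, had 20.6 and 28.3 CPM. From wild type, homozygous KO differed by 0.24 on the log2 scale (SE 0.303, adjusted p = 0.607), and a term for the animal number range turned it to -0.07. In the other direction, the Xist term gave 0.47 (adjusted p = 0.23) and the replicate number as a block 0.32 (adjusted p = 0.381). Ccl25 overlaps Elavl1 on the opposite strand.

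Cxcl12 followed nearly the same order. It had 10.2, 13.2 and 22.3 CPM in homozygous KO, 8.13, 21.5 and 18.2 CPM in heterozygous KO and 6.85, 14.2, 11.5 and 14.8 CPM in wild type. All groups overlapped, and homozygous KO differed from wild type by 0.36 on the log2 scale (SE 0.358, adjusted p = 0.501), or by -0.02 with a term for the animal number range. The Xist term instead gave 0.75 (SE 0.297, adjusted p = 0.105), and the replicate number as a block 0.50 (SE 0.209, adjusted p = 0.116).

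Cortical epithelial genes moved with both ligands. The median of 10 such genes, each set against its own wild-type mean, was 84.5%, 79.2% and 163% in the homozygous libraries, 75.9%, 160% and 154% in the heterozygous ones and 74.0% to 126% in wild type. Ccl25 stood at 87.8%, 90.2% and 176%, at 73.3%, 171% and 144%, and at 78.5% to 124% in the same libraries. One of the 10, the protease gene Ctsl, was called in homozygous KO against wild type (0.64, adjusted p = 0.0283), and Foxn1, the master transcription factor of thymic epithelium, had a log2 fold change of 0.10 (adjusted p = 0.853). Fibroblast genes, another source of Cxcl12, were called higher for 4 of 10 and lower for 1. Endothelial genes were called higher for 1 of 9 tested and lower for 1, near the 25.8% of all features called. The part of any of these cells in the ligand values was not tested.

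**Figure D4:**
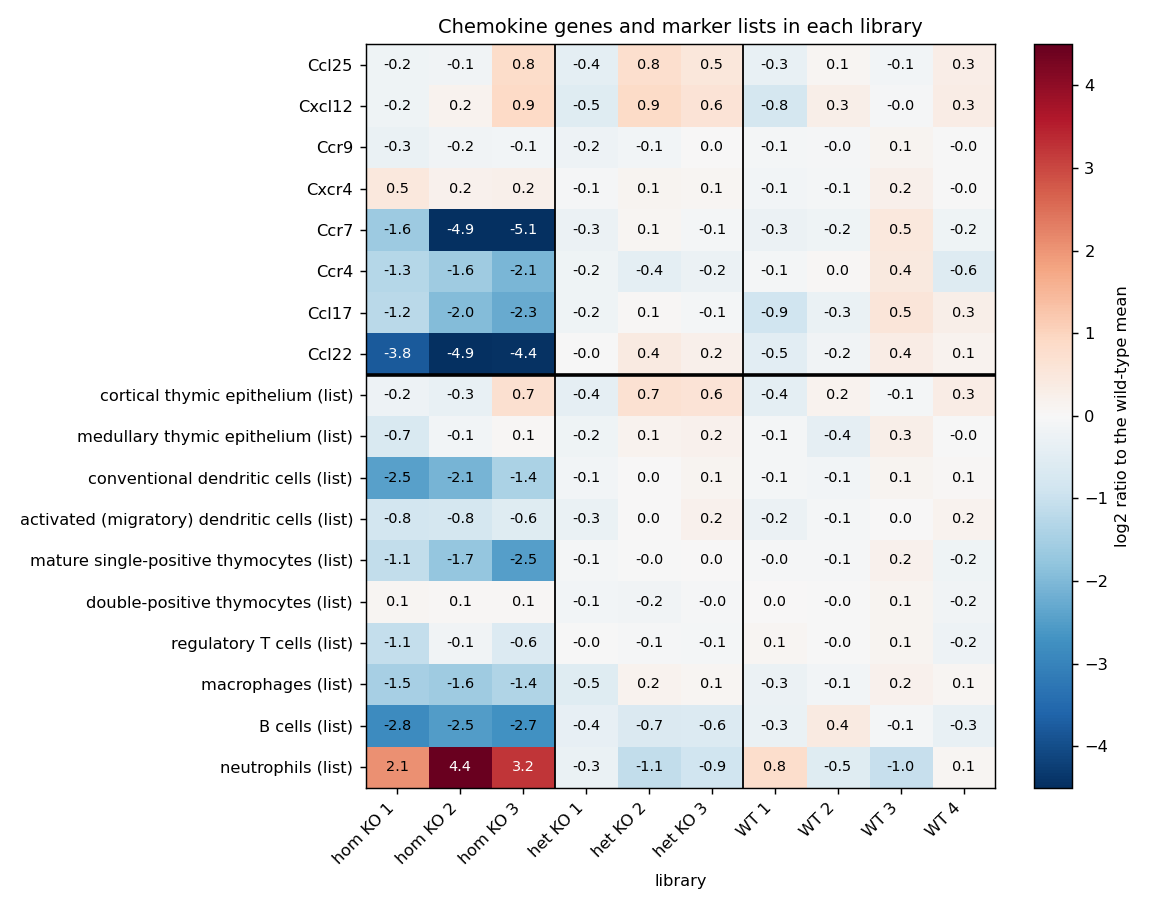
Log2 ratio to the wild-type mean in each library (columns) for the 8 tested genes and, below the line, for the median gene of 10 marker lists; colour and number both give the ratio. Ccl22, Ccr7, Ccr4 and Ccl17 are low in the 3 homozygous KO libraries together with dendritic cell, mature thymocyte, macrophage and B cell genes, and Ccl25 and Cxcl12 vary with the cortical epithelial list.

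Over the 6 tested genes that were not chosen for their falls, 3 were called in homozygous KO against wild type, 2 lower and 1 higher. Over all 19511 features, 25.8% were called in this comparison, 13.2% lower and 12.5% higher. Groups did not overlap for 3 of the 6, against 32.7% of all features. Against heterozygous KO, 2 of the 6 were called, both lower, where 17.1% of all features were called, 9.5% lower and 7.63% higher. The 2 comparisons share the homozygous KO libraries. With 6 genes, these counts do not set the axes apart from the rest of the transcriptome.

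In heterozygous KO no member was called against wild type. Of all features 0.0154% were called, 3 in number. The log2 fold changes of the 8 tested genes ran from -0.29 for Ccr4 to 0.43 for Cxcl12, the adjusted p from 0.834 to 0.989, and the groups overlapped for each of the 8, where they were separate for 8.69% of all features. None of the 8 had an unadjusted p under 0.05 in edgeR, against 7.28% of all features, the lowest being 0.209, and DESeq2 also called 0 of them, giving no adjusted p for Ccr7. Ccr7 had a log2 fold change of -0.08 with a standard error of 0.632 in this fit, the widest error of the 8. With the Xist term in the edgeR fit, Cxcl12 stood at 1.20 and Ccl25 at 0.91, each with adjusted p = 0.769.

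**Figure D5:**
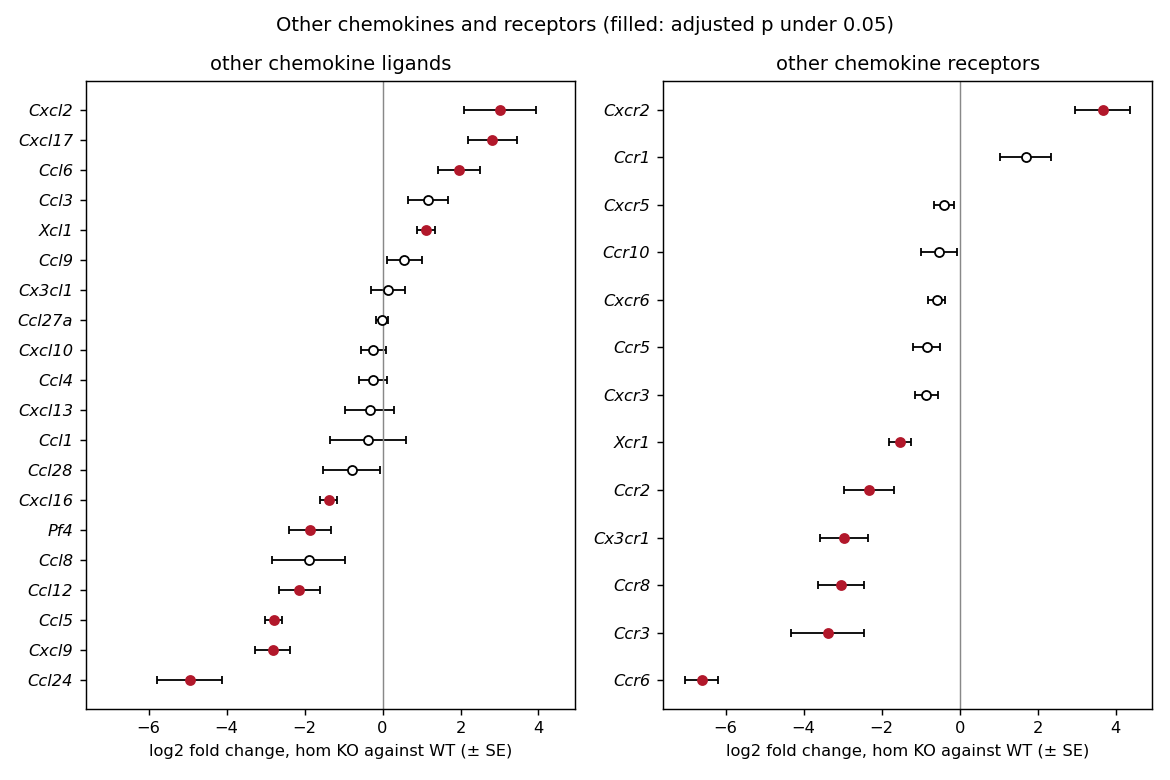
Log2 fold change of homozygous KO against wild type with its standard error for the 20 other chemokine ligands and 13 other chemokine receptors that passed the filter, filled where the adjusted p is under 0.05. The receptors called lower run from Xcr1 to Ccr6, and Cxcr2 is the receptor called higher.

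Other chemokines and receptors changed in both directions. Of 33 tested genes outside the 10, 17 were called in homozygous KO against wild type, 12 lower and 5 higher, beside 25.8% of all features, 13.2% lower and 12.5% higher. Against wild type 1 and 2 alone 11 were called. The ligands had a median log2 fold change of -0.28 and the receptors of -0.86.

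Among ligands the largest falls with separate groups were Ccl24, an eosinophil attractant made by macrophages (-4.95), Cxcl9, an interferon-induced T cell attractant (-2.82), and Ccl5, a T cell attractant (-2.79). Ccl24 had 0.319 to 0.762 CPM in wild type, 0.0554 CPM in homozygous KO 3 and no count in homozygous KO 1 and 2. Ccl5 had 0.642, 0.958 and 0.720 CPM in homozygous KO against 4.32 to 7.22 CPM in wild type, and it also stands in the list of activated dendritic cells. The rises with separate groups were Cxcl17 (2.82), a mucosal chemokine, and Xcl1 (1.10), the ligand of the dendritic cell receptor XCR1. Xcl1 had 4.06, 3.87 and 3.31 CPM in homozygous KO and 1.28 to 2.23 CPM in wild type. Its receptor Xcr1 fell by 1.53, from 2.32 to 3.83 CPM in wild type to 0.729, 0.851 and 1.53 CPM.

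Among receptors Ccr6, which binds CCL20 and is known on B cells and dendritic cells, had at most 3 counts in each homozygous library. It stood at 2.05 ± 0.200 CPM in wild type (SD, n = 4) and was at least 69.4-fold lower. Ccr3, an eosinophil receptor, had at most 0.0685 CPM in homozygous KO and 0.246 to 0.585 CPM in wild type (-3.39 on the log2 scale). Ccr8, the receptor of CCL1, had 2.18, 0.479 and 0.266 CPM in homozygous KO 1, 2 and 3 and 5.03 to 12.6 CPM in the other groups. It fell by 3.04 on the log2 scale (SE 0.599, adjusted p = 0.00364), and homozygous KO 1 was the high library of its group as it was for Ccr7. Cxcr2, the neutrophil receptor, rose by 3.66 (SE 0.710, adjusted p = 0.00333), with 0.391, 2.88 and 1.94 CPM in homozygous KO against 0.0675 to 0.337 CPM in wild type.

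Neutrophil genes moved with Cxcr2. Of 8 tested neutrophil genes, 6 were called higher and 0 lower, and their summed level was 55.98 to 312 CPM in homozygous KO against 7.97 to 24.4 CPM in wild type. Lcn2, Ltf and S100a8, which encode granule and cytoplasmic proteins of neutrophils, rose by 4.35, 3.89 and 3.78 on the log2 scale. B cell genes were lower with Ccr6: 7 of 8 were called lower and 0 higher, and Ms4a1, the gene for CD20, had at most 1 count in homozygous KO. Macrophage genes, listed beside Ccl24, were called lower for 10 of 10, with Timd4, a receptor for dying cells, lower by 4.89. Their part in these chemokine values was not tested.

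Of the 4 tested atypical and scavenger receptors, which take up chemokines or related ligands, Cmklr1, the receptor of chemerin, was called, lower by 0.81 (adjusted p = 0.0328), and 1 of 4 is near the 25.8% of all features called. Ackr4, which removes CCL19, CCL21 and CCL25, had 1.35, 1.496 and 3.39 CPM in homozygous KO and 1.27 to 1.68 CPM in wild type (adjusted p = 0.22).

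Downstream of the receptors, 10 of 27 signalling genes were called in homozygous KO against wild type, 5 lower and 5 higher, with a median log2 fold change of -0.02. With 25.8% of all features called, this count does not set the signalling genes apart. Gnai1, an inhibitory G protein subunit, had 7.09, 15.5 and 22.1 CPM in homozygous KO and 0.123 to 0.484 CPM in wild type, a rise of 5.45 on the log2 scale (SE 0.533, adjusted p = 3.68e-05). Its relative Gnai2, the abundant form, had 565 to 627 CPM against 486 to 540 CPM. Plcb3, a phospholipase, and Gnb1, a G protein subunit, rose by 0.51 and 0.32. Grk3, a kinase that desensitises these receptors, fell from 5.18 to 5.72 CPM in wild type to 0.660, 0.880 and 1.21 CPM, by 2.56 on the log2 scale (SE 0.208, adjusted p = 1.05e-05). Gng2 and Plcb2 fell by 1.18 and 0.71. The abundant Rac1, Rac2, Dock2 and Elmo1, which drive cell movement, had log2 fold changes of 0.31, 0.08, -0.18 and 0.01, of which that of Rac1 was called.

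Of 14 genes of the lymphotoxin, RANK and non-canonical NF-kB axis, through which thymocytes support the medulla, 5 were called lower and 0 higher. The largest falls were Cd40lg, the ligand of CD40 on helper T cells (-2.87), its receptor Cd40 (-2.07) and Tnfrsf11a, the gene for RANK (-0.84). Cd40lg had 1.43, 0.450 and 0.144 CPM in homozygous KO 1, 2 and 3 and 2.67 to 7.62 CPM in the other groups, with homozygous KO 1 again the highest of its group. Tnfsf11, the gene for RANK ligand, and Ltb, for lymphotoxin beta, had log2 fold changes of 0.36 and 0.08 and were not called.

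For each tested member, the 2 protein-coding genes with the most similar profile over the 10 libraries were sought among 9723 genes whose log2 CPM averaged 2 or more. Likeness was the root mean square difference between log2 CPM values, each gene centred on its own mean. Ccl25 was nearest to Crip3 (0.127) and Prss16 (0.128), a thymus-specific protease gene, and Cxcl12 to Crip3 (0.158) and Ank3 (0.175), where the members' own spreads were 0.434 and 0.536. Ccr7 was nearest to Ccr8 (0.378) and the integrin gene Itgb3 (0.486), for a spread of 1.97. Ccr4 was nearest to Icos (0.153), a T cell costimulator, and Fam102a (0.172), for a spread of 0.752. Ccl22 was nearest to Tdrp (0.305) and Chl1 (0.322), for a spread of 2.04, and Ccl17 to Klf2 (0.250) and Irf4 (0.266), for a spread of 0.838. Ccr9 and Cxcr4 varied little, with spreads of 0.124 and 0.173, and their nearest genes were Zgpat (0.0438) and Etv3 (0.0544), and Lsm11 (0.0505) and Ubl4a (0.0557). These neighbours share the libraries and the difference between groups with the members.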

How the data were processed

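RNA was measured in 10 thymus libraries. The authors deposited raw read counts per gene, with no normalization. The submitters' processing notes name CASAVA, STAR 2.4.1d and HTSeq 0.6.1p1 and the builds NCBIM37 and mm9, whereas the study's methods describe a BWA-based pipeline with a human reference. The strand setting and the handling of reads with several matches are not given in the sources used here. Without a strand setting, genes that overlap on opposite strands have uncertain counts.

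Groups came from the titles. The titles of wild type 1 and 2 hold 2 wt words, and those of wild type 3 and 4 hold 1, where the column names add the word het; the title was followed. Among 35375 features, 34467 had an Ensembl identifier, and rows with none held 1.74% to 2.29% of the counts. Names and lengths came from GENCODE M21 (GRCm38), a different build from mm9, and promoters from RefSeq (GRCm38.p6).

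Counts were fitted with edgeR 4.0.16 (R 4.3.3) by quasi-likelihood with TMM scaling and filterByExpr, in 1 fit over all 10 libraries. The 3 comparisons were adjusted by Benjamini-Hochberg over 19511 features and called under 0.05. The standard error is the absolute log2 fold change divided by the square root of F. Usp7 was also tested by exact permutation. A fold against libraries with at most 3 counts was computed against a floor of 3 counts per library. Floors cover counting error only, whereas the values after ± are SDs between the libraries of a group. The 12 pairs of libraries within groups differed far beyond sampling noise (chi-square per degree of freedom 13.5 to 116). The fit was tested on simulated data with 200 changed features.

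The members and the gene lists were chosen with earlier results of these data known. Genes named from a list were, for homozygous KO against wild type, the called genes with separate groups that rose most (3) or fell most (3), beside defining markers. The lists were other ligands, other receptors, scavenger receptors, signalling, the NF-kB axis and markers of epithelium, dendritic cells, fibroblasts, endothelium, thymocyte stages, regulatory T cells, macrophages, B cells, neutrophils and erythroid cells. They held 253 entries, of which 248 had a row. Alternatives were DESeq2 1.42.0, library totals, no filter, the 2 groups alone, blocks, an Xist term, each pair of wild types and each library left out.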

Additional observations from a re-analysis of the deposited data

Results flagged for a closer look

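Among the 8 tested members, 1 wild-type value stood far from the others of its group. Ccr7 had 56.7 CPM in wild type 3, against 33.7 to 35.6 CPM in the other 3 wild types. The gap was 0.917 of the group's range, above Dixon's 95% limit for 4 samples. Chance alone passes this limit in about 1 in 20 groups, and 8 groups were examined. Without wild type 3 the log2 fold change of homozygous KO against wild type was -2.75, where it was -2.96 with all libraries. The other 2 groups have 3 libraries each and were not examined.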

How the results depend on the processing

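Of 110 recomputed counts of called genes, 106 stayed within 1.5 times the reported count. Against wild type 1 and 2 alone 11 other chemokine genes were called in place of 17. Leaving out 1 library gave 1 to 2 called members in homozygous KO against heterozygous KO, 2 to 3 against wild type and 0 in heterozygous KO. Tested members kept their direction and their side of the threshold in 328 of 367 recomputed values. Of the rest, 22 changed direction, 14 lost the call (10 of them Cxcr4 against wild type) and 3, all Ccr9, gained it. A further value had no adjusted p in DESeq2. Ccl22 and Ccr7, given with no test against homozygous KO, moved by less than the spread between replicates in 70 of 72 values. In homozygous KO against wild type, leaving out 1 library gave -0.16 to 0.41 for Ccl25 and -0.014 to 0.58 for Cxcl12, and a term for the animal number range gave -0.068 and -0.019. Against heterozygous KO, leaving out 1 library gave -0.54 to 0.12 for Ccl25 and -0.45 to 0.21 for Cxcl12. In heterozygous KO against wild type it gave -0.17 to 0.13 for Ccr7 and -0.30 to 0.13 for Ccl17. There the animal number term gave 0.42 for Ccr7 and -0.0022 for Cxcl12, wild type 1 and 2 alone gave 0.14 for Ccr7 and 0.49 for Ccl17, wild type 3 and 4 alone gave -0.049 for Cxcr4 and -0.033 for Ccl22, and an Xist term gave 0.12 for Ccl17. The causes were not tested. Ccr4 stayed called in both comparisons with homozygous KO under all alternatives (adjusted p up to 0.013). Ccl17 rests on 12 to 83 counts per library.

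The replicate numbers were not shown to pair the libraries. Deviations from the group means correlated at -0.10 to 0.23 between libraries with the same number, and 8 of 18 comparisons of a library with another group were best at its own number. With the replicate number as a block, 4934 features were called in homozygous KO against wild type in place of 5030, and 3 members, with Ccr9 called (adjusted p = 0.0268) and Cxcr4 not (adjusted p = 0.0807). In heterozygous KO the block gave 0.023 for Ccl17 in place of -0.10.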

Other observations

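Plasmacytoid dendritic cell genes, which belong to no axis described above, were low in homozygous KO: of 7, 3 were called lower and 1 higher against wild type. Siglech, their lectin, had at most 2 counts in each homozygous KO library and 2.21 ± 0.480 CPM in wild type (SD, n = 4), at least 74.9-fold lower. Ly6d had 3.46, 2.87 and 5.61 CPM in homozygous KO and 38.5 to 69.4 CPM in wild type, and Pacsin1 4.36, 1.76 and 1.74 CPM against 21.1 to 30.8 CPM. Bst2, which is also induced by interferon, was higher by 0.83 on the log2 scale.

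Genes of double-negative thymocytes, the cells that precede the double-positive stage, were called lower for 4 of 10 and higher for 2 of 10 in homozygous KO against wild type. Bcl11a, a transcription factor of progenitors, fell from 4.498 to 7.34 CPM in wild type to 0.599, 0.597 and 0.842 CPM. Il7r, the receptor of interleukin 7, was lower by 1.97 on the log2 scale and also stands in the list of mature thymocytes. Notch1, the receptor that commits progenitors to the T cell fate, had 1750, 2767 and 2341 CPM in homozygous KO and 1022 to 1210 CPM in wild type, and Cd24a rose by 0.53. Erythroid genes were called higher for 2 of 6, Klf1 (2.63) and Epor (1.27), where 12.5% of all features were called higher, while the haemoglobin gene Hba-a1 varied from 60.4 to 561 CPM within homozygous KO.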
